A study of Mus musculus with 9 samples.

Results

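The RNA abundance profile was that of mouse macrophages without tristetraprolin (TTP, gene Zfp36), an immortalized line from bone marrow that carried GFP alone. The profile rests on the 3 GFP libraries of the 9 libraries in the series and covers 25494 genes. The libraries were taken by label, and only this group is profiled. Other groups enter in the check of Zfp36 and in checks of the deposited values. They also enter through the model that gave those values, described below. For each GFP library the deposited values were scaled to counts per 1000000 (CPM) over all listed genes, and the 3 libraries were averaged. Where genes are compared with each other, the CPM was divided by the length of the gene's exons, which gives CPM per kilobase.

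The cells came from bone marrow of TTP-deficient mice, were grown in M-CSF and were made immortal with the human oncogenes c-myc and activated H-Ras. Cells positive for CD11b and F4/80 were then transduced with a vector in which doxycycline switches on GFP, and GFP-positive cells were sorted. All 9 libraries share the TTP deficiency, the oncogenes, 6 h of doxycycline and 1 h of LPS, each agent at 1 µg/ml. The other 6 libraries came from cells carrying GFP-TTP or its AA mutant in place of GFP. No library came from unstimulated cells, so a level given here is a level after LPS and not a response to it. Nothing in the labels says that the 3 GFP libraries came from separately derived lines.

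Macrophages sense LPS, a component of the bacterial outer membrane, through CD14 and the complex of TLR4 and MD-2. The signal runs through adaptor proteins and kinases to NF-κB, AP-1 and interferon regulatory factors, and within the hour switches on cytokines, chemokines, immediate early transcription factors and inhibitors of the same signal. TTP binds AU-rich elements in the 3′UTR of many of these mRNAs and promotes their decay, and it is itself among the genes that the signal induces.

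A property of the deposited values limits everything that follows. They are fitted means of a model with a library factor, a replicate-number term and a group term, not separate measurements. Over all 9 libraries they had 4 nonzero singular values where 8 were free, no value was 0, and the ratio between replicate numbers was the same in every group, with a largest deviation of 2.1e-14 on the log2 scale. Differences among GFP replicates 1 to 3 are therefore the replicate-number term that all 3 groups share. They are given as a range over libraries and never as biological error, and no test was made. The fitted counts summed to 36295572, 29245475 and 38032238 in GFP replicates 1 to 3, so 1 CPM stood for 29.2 to 38.0 fitted counts and 0.1 CPM for 2.92 to 3.80. A value well under 0.1 CPM is a fitted mean below a few reads and gives no rank.

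The targeted gene was counted in every group. Zfp36 had 49.8, 38.0 and 24.8 CPM in GFP replicates 1 to 3, a mean of 37.5 CPM. It ranged from 25.2 to 50.9 CPM in the TTP libraries, close to the GFP library of the same replicate number each time. In TTP-AA replicates 1 to 3 it had 80.0, 61.0 and 39.8 CPM, above GFP at every replicate number. Ratios between replicate numbers are the same in every group, so this difference is a single group term and was not tested. Read counts over this gene thus do not show the loss of the protein, and they do not set the GFP libraries apart from those labelled TTP. Exons of Zfp36 also overlap Gm44710 on the opposite strand, and no source states whether counting used strand.

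AU-rich sequences recognised by TTP were looked up in the reference, because the early inflammatory genes described further on include many of its known targets. The letters TATTTAT were searched on the transcript strand of the annotated 3′UTR (GENCODE M21, GRCm38), with overlapping copies counted separately. The 8 early inflammatory genes highest per kilobase among those with a copy are shown by the 27-base window holding the most copies, with every copy in capitals.
Ccl4 (chr11:83664543-83664569, plus strand): ttatttctatTATTTATgttttagtta
Tnf (chr17:35199682-35199708, minus strand): atTATTTATTATTTATTTATTATTTAT
Nfkbia (chr12:55489609-55489635, minus strand): gaccacgtttTATTTATtgtgcttttg
Cxcl2 (chr5:90905331-90905357, plus strand): TATTTATctatgTATTTATTTATTTAT
Ccl3 (chr11:83648004-83648030, minus strand): tatttgtgacTATTTATtctgaaagac
Ier3 (chr17:35822482-35822508, plus strand): gtctaattaaTATTTATgTATTTATgt
Atf3 (chr1:191170339-191170365, minus strand): aaatattactTATTTATcccagtattc
Klf6 (chr13:5868491-5868517, plus strand): ctacgtctctTATTTATgccttgagga
Tnf had 8 copies in a 3′UTR of 764 bases and Cxcl2 had 7 in 734 bases, and in both 4 of them crowd into the window printed. Ier3 had 4 copies, Nfkbia and Klf6 had 2 each, and Ccl4, Ccl3 and Atf3 had 1 each. The motif stood in 39 of the 70 early inflammatory genes at or above 1 CPM, or 55.7%, with a median 3′UTR of 769 bases. Among all 10437 protein-coding genes at or above 1 CPM with an annotated 3′UTR it stood in 27.8%, with a median of 970 bases. The share was larger in longer 3′UTRs, from 5.99% to 54.9% between the shortest and the longest of 4 classes of about equal size. By role, it was present in 12 of 13 cytokine genes, 11 of 18 immediate early factors, 10 of 18 feedback genes, 4 of 10 chemokines and 2 of 11 NF-κB genes. At least 3 copies were found in 22.9% of the early inflammatory genes and in 3.32% of all expressed coding genes. Myeloid identity genes carried the motif in 11 of 55 cases, or 20%, and ribosomal protein genes in 2 of 81, or 2.47%, with 3′UTRs of 89 bases at the median. These matches are a description of letters and not of binding.

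The macrophage label was checked against Csf1r, Lyz2, Cd68 and Spi1. Lyz2 (10:117277331-117282321, minus strand, GRCm38), encoding the lysozyme of myeloid cells, had 16332, 19100 and 14028 CPM in GFP replicates 1 to 3. Csf1r (18:61100598-61132149, plus strand), the receptor for M-CSF, had 626, 519 and 540 CPM. Cd68 (11:69664213-69666153, minus strand), a lysosomal glycoprotein, had 283, 297 and 240 CPM. All 3 genes were high in every library, with a highest library at most 1.36 times the lowest. Spi1 (2:91082390-91115756, plus strand), encoding the myeloid transcription factor PU.1, had 128, 138 and 126 CPM. Per kilobase, Lyz2 stood at 12528 CPM, Cd68 at 217, Csf1r at 97.2 and Spi1 at 48.5, beside a median of 7.99 for protein-coding genes at or above 1 CPM. The data thus carry all 4 markers. Reads of Lyz2 and its near-identical neighbour Lyz1, which was at 629 CPM, may be shared between the pair or left uncounted.

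Of the 25494 genes, 11430 (44.8%) were at or above 1 CPM, 3264 lay between 0.1 and 1 CPM and 10800 were under 0.1 CPM. Among the 16584 protein-coding genes 10610 (64.0%) reached 1 CPM. Levels spanned a wide range, with 8736 genes at or above 10 CPM, 2413 at or above 100 CPM and 78 at or above 1000 CPM. The 10 most abundant genes took 8.58% of all counts, the top 100 took 21.2% and the top 1000 took 52.7%. Protein-coding genes together held 94.5%. Genes of the mitochondrial genome were not analysed here.

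The RNA with the highest mean CPM was Rpph1, but its lead over Lyz2 rested on replicate 2. Rpph1, the RNA of ribonuclease P, which trims transfer RNA precursors, had 17476, 28293 and 12584 CPM in GFP replicates 1 to 3. Rn7sk, which holds back the elongation factor P-TEFb, had 10273, 14240 and 5909 CPM. Rmrp, the RNA of a related ribonuclease that acts on ribosomal RNA precursors, had 5392, 7983 and 3235 CPM. All 3 are RNA polymerase III products, and each was highest in replicate 2 and lowest in replicate 3. Lyz2, with 14028 CPM, exceeded Rpph1 in replicate 3, and without replicate 2 the means were 15180 CPM for Lyz2 and 15030 for Rpph1. Together the 3 noncoding RNAs took 3.51% of counts. Exons of Rpph1 overlap Ccnb1ip1 on the same strand, and those of Rmrp overlap Ccdc107 on the opposite strand.

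The other 17 of the 20 leading genes were protein coding. Lyz2 led them with 16487 CPM, followed by the cytoskeletal actin Actb at 7803, the translation elongation factor Eef1a1 at 7586 and the ferritin heavy chain Fth1 at 5899 CPM. Gpnmb, a lysosomal and surface glycoprotein of macrophages, came next among coding genes at 4979 CPM, ahead of the glycolytic enzyme Pkm at 4191 and the elongation factor Eef2 at 3771 CPM. Rack1, bound to the small ribosomal subunit, had 3316 CPM. In these coding genes the highest library was at most 1.41 times the lowest, whereas the lysosomal protease Ctsd and the secreted phosphoprotein Spp1 varied more and were highest in replicate 2. Ctsd had 2890, 4075 and 2321 CPM in GFP replicates 1 to 3. Spp1 had 2717, 3686 and 2375 CPM. Rpl8, Rplp0, Rpl4 and Rpl23 of the large ribosomal subunit, the actin-binding peptide Tmsb4x, the protease Ctsb and the intermediate filament Vim filled the remaining places with 2168 to 2893 CPM.

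**Figure D1:**
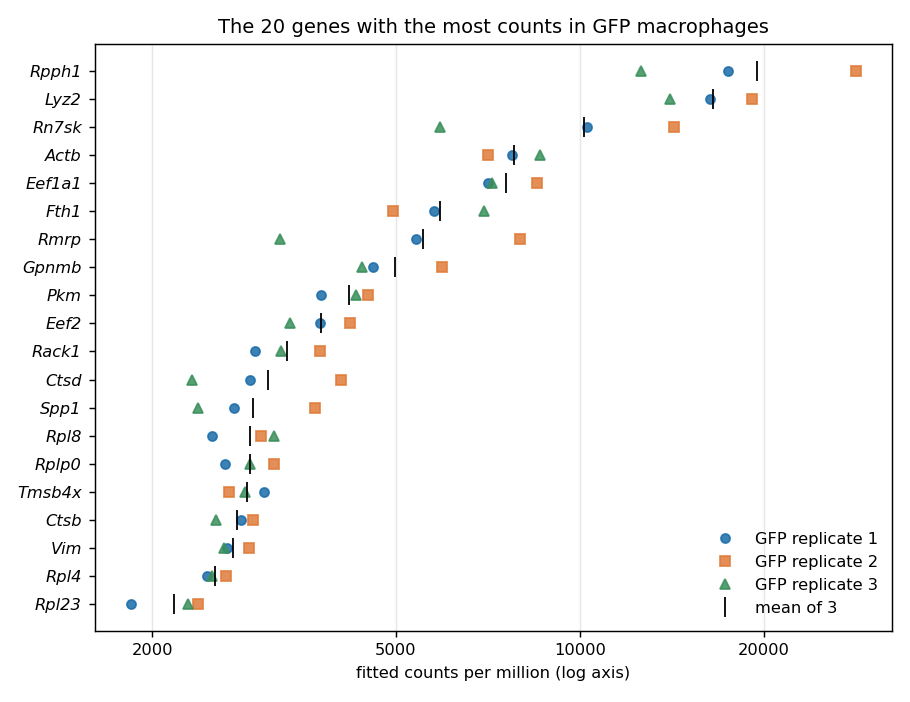
CPM (log axis) of the 20 genes with the highest mean CPM, 1 row per gene, with 1 point per GFP library and a bar at the mean of 3. Rpph1, Rn7sk and Rmrp spread most, from 12584 to 28293 CPM for Rpph1, with replicate 2 highest and replicate 3 lowest, and Lyz2 is the leading coding gene at 16487 CPM.

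Ordered per kilobase among protein-coding genes, Lyz2 stood well ahead at 12528 CPM per kilobase. The next were Rplp1 of the ribosomal stalk at 3170, Eef1a1 at 3043, Actb at 2913 and the calcium-binding protein S100a4 at 2401 CPM per kilobase. Ribosomal protein genes held 9 of the top 20 places (Rplp1, Rpl8, Rpl32 and Rplp0 among them), 20 of the top 50 and 40 of the top 100. The remaining places in the top 20 went to Tmsb4x, Spp1, Fth1, Ctsd, the cathepsin Ctsz, the galectin Lgals1 and Eef2, between 1135 and 2080 CPM per kilobase. The set of 84 ribosomal protein genes was taken by gene name. It counts Rack1 and the like-named Rpl7l1, Rpl22l1, Rps27l and Rpl36al but not Rps27rt. All 84 were at or above 1 CPM, from 30.1 to 3170 CPM per kilobase with a median of 352, and took 6.90% of counts. Many have processed pseudogenes, so reads of these genes, as of Actb, Eef1a1, Fth1 and Tmsb4x, may be split among copies or left uncounted. Which of these held was not tested.

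The widest differences between libraries were in small noncoding RNAs. Among the 8736 genes at or above 10 CPM the highest library was 1.23 times the lowest at the median, 83.6% of genes stayed under 1.5 times, and 363 (4.16%) reached at least 2. Of these 363 genes 303 were protein coding, which is 3.55% of the 8539 coding genes at that level. The 5 widest ratios belonged to small nucleolar or Cajal body RNAs, namely Gm24119, Rnu3a, Snora23, Gm23751 and Gm23927, with ratios of 7.23 to 11.7. Rnu3a, a U3 RNA that guides ribosomal RNA processing, had 610, 1299 and 114 CPM in GFP replicates 1 to 3. Of 106 small nucleolar RNAs at or above 1 CPM, 100 were highest in replicate 2 and 95 lowest in replicate 3. Of 32 genes annotated as small nuclear RNAs, 26 were highest in replicate 2 and 31 lowest in replicate 3. Among protein-coding genes, by contrast, 25.5% were highest in replicate 2 and 28.1% lowest in replicate 3. Small nucleolar RNAs took 0.147%, 0.280% and 0.0601% of counts in replicates 1 to 3, and small nuclear RNAs took 0.252%, 0.398% and 0.0810%. Ribosomal protein genes were highest in replicate 2 in 76 of 84 cases. The part of these RNA classes in the other levels was not tested. The 10 most abundant protein-coding genes took 6.01% of all counts and 6.37% of the counts of protein-coding genes.

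**Figure D2:**
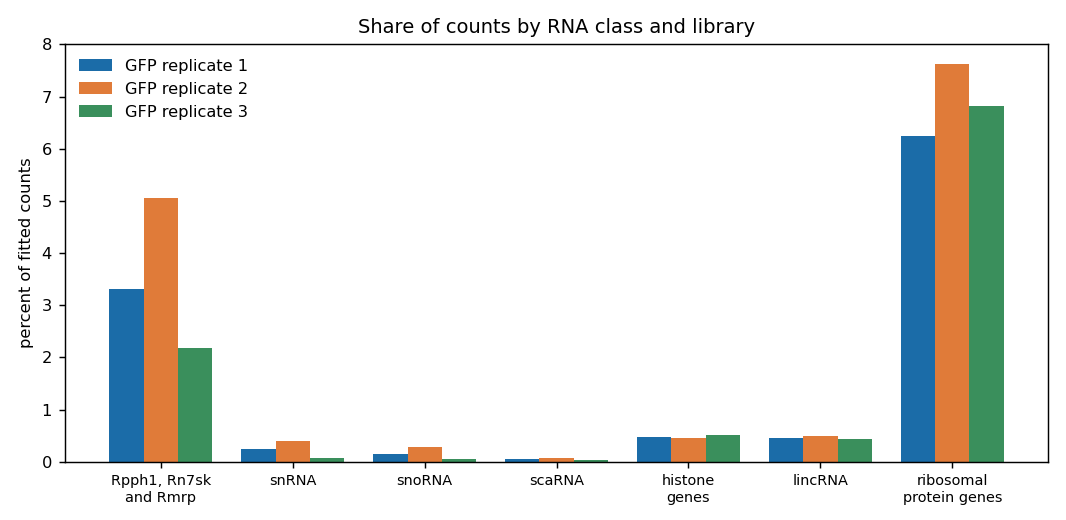
Percent of fitted counts (linear axis from 0) taken by 7 RNA classes, with 1 bar per GFP library. Replicate 2 is highest and replicate 3 lowest for Rpph1, Rn7sk and Rmrp together, for small nuclear, nucleolar and Cajal body RNAs, while histone genes and lincRNAs are close to even.

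The list of myeloid identity genes was high at its median, but its roles differed. Of 64 members, 62 were listed and 57 were at or above 1 CPM, beside 64.0% of all listed protein-coding genes. Their median was 36.4 CPM per kilobase, beside 2.37 for all listed protein-coding genes and 7.99 for those at or above 1 CPM, and 26 of the 62 lay above the 90th percentile of expressed coding genes, 52.6 CPM per kilobase. Of these 26, 16 were lysosomal and effector genes, 9 were receptors and surface proteins and 1 was a transcription factor. Receptors and transcription factors had medians of 12.5 and 11.5 CPM per kilobase, much nearer to the 7.99 of expressed coding genes. In bulk RNA, fewer cells of a type and less RNA per cell cannot be told apart.

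All 14 myeloid transcription factors reached 1 CPM, with a median of 11.5 CPM per kilobase. Cebpb, a C/EBP factor of inflammatory and differentiated myeloid cells, led by far. It had 606, 790 and 978 CPM in GFP replicates 1 to 3, or 526 CPM per kilobase, and its exons overlap Tmem189 on the opposite strand. Spi1 followed at 48.5 CPM per kilobase, then the ETS factors Ets2 at 35.6 and Fli1 at 27.2 and the lysosomal regulator Mitf at 16.7. The other end held Cebpa, a C/EBP factor of early myeloid commitment, at 3.72 CPM and Maf at 4.24 CPM, or 1.41 and 0.514 CPM per kilobase. Both C/EBP genes were thus above 1 CPM, far apart in level.

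Of 28 listed receptors and surface proteins 24 reached 1 CPM. The signalling adaptor Tyrobp was the highest at 1017 CPM per kilobase, followed by the LPS co-receptor Cd14 at 377, the Fc receptor Fcgr3 at 237, the shared Fc receptor chain Fcer1g at 174 and Adgre1, which encodes F4/80, at 146. Adgre1 had 605, 419 and 391 CPM in GFP replicates 1 to 3. Itgam, which encodes CD11b, had 302, 236 and 191 CPM, or 48.4 CPM per kilobase. These are the markers by which the cells were sorted, so their presence is no independent finding. Some receptors of resident macrophages and monocytes were under 1 CPM: the apoptotic cell receptor Mertk had 0.546 CPM, the monocyte chemokine receptor Ccr2 0.402, the haemoglobin scavenger receptor Cd163 0.276 and the complement receptor Vsig4 0.0032 CPM, and Timd4 was not listed.

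Lysosomal and effector genes formed the highest of these groups, with a median of 139 CPM per kilobase and 16 of 20 above the 90th percentile. After Lyz2 came the cathepsin Ctsd at 1317, Gpnmb at 764, Cyba at 607 and the cathepsin Ctsb at 455 CPM per kilobase. Cyba is a subunit of the NADPH oxidase, and further subunits, Ncf1, Cybb and Ncf4, were at 101, 93.8 and 82.8 CPM per kilobase. The lipoprotein lipase gene Lpl had 1374, 1189 and 1924 CPM in GFP replicates 1 to 3. By contrast the apolipoprotein gene Apoe, often abundant in macrophages, had 0.892, 0.730 and 0.890 CPM, under 1 in every library. Chil3, a chitinase-like protein of alternatively activated cells, was not listed.

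Of 25 genes of the pathway that receives LPS, 24 were at or above 1 CPM, beside 64.0% of all listed protein-coding genes. The median of the 25 was 11.8 CPM per kilobase, beside 7.99 for expressed coding genes. Only 2 of the 25 lay above the 90th percentile of expressed coding genes. In the receptor complex Cd14 had 557, 722 and 677 CPM in GFP replicates 1 to 3. Tlr4 had 121, 104 and 85.1 CPM and Ly96, which encodes MD-2, had 10.1, 11.0 and 8.35 CPM. Per kilobase these were 377, 18.6 and 9.63 CPM, so the co-receptor stood far above the signalling complex. Lbp, the serum LPS-binding protein made mainly by liver, was at 0.592 CPM.

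All 21 adaptors and kinases downstream reached 1 CPM, with a median of 11.8 CPM per kilobase. Mapkapk2, which encodes the kinase MK2 that phosphorylates TTP, was the highest. It had 512, 546 and 816 CPM in GFP replicates 1 to 3, or 205 CPM per kilobase. Next were Mapk14, the p38α kinase that activates MK2, at 45.0, the kinase Tbk1 at 30.4, the adaptor Myd88 and the TAK1 kinase Map3k7 both at 27 CPM per kilobase. The TRIF adaptor pair of the same receptor was lower, with Ticam1 at 2.91 and Ticam2 at 1.5 CPM per kilobase.

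**Figure D3:**
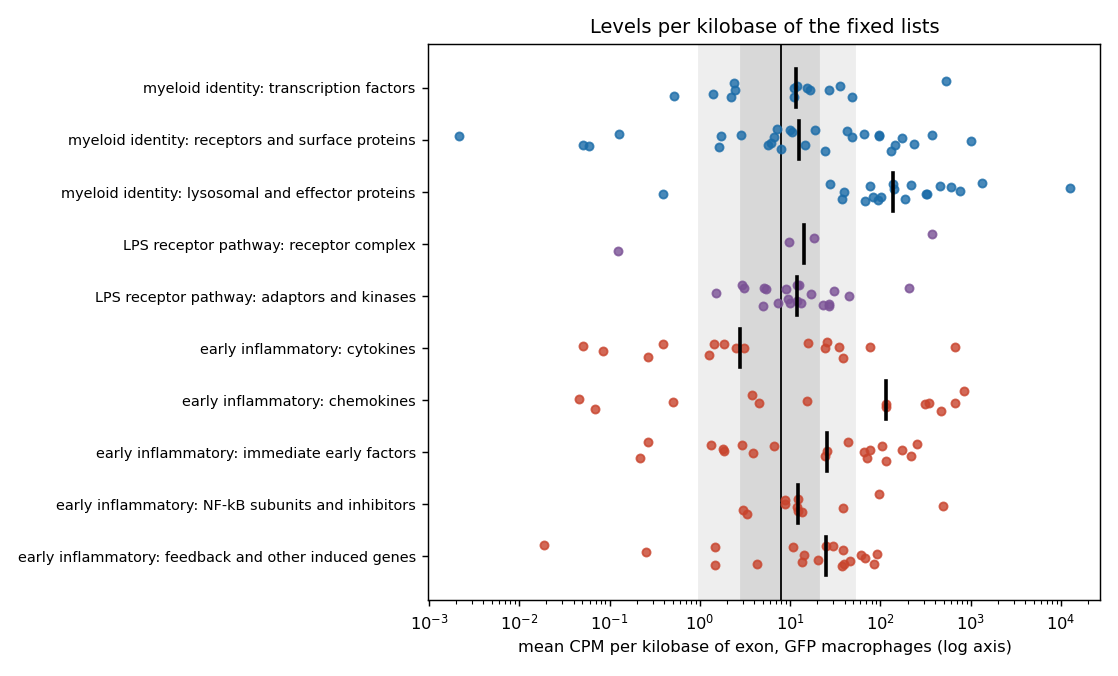
Mean CPM per kilobase of exon (log axis) in GFP macrophages, 1 point per listed gene, 1 line per role, with a black bar at the role's median. Dark and pale grey bands span the 25th to 75th and the 10th to 90th percentiles of protein-coding genes at or above 1 CPM, with a line at their median of 7.99, and the lysosomal and effector genes and the chemokines have the highest medians, 139 and 116 CPM per kilobase.

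Early inflammatory genes were mostly expressed but spread over a wide range. Of 78 members, all listed, 70 reached 1 CPM, beside 64.0% of all listed protein-coding genes. The median of the list was 15.7 CPM per kilobase, and 23 members lay above the 90th percentile of expressed coding genes. Tnf, the cytokine whose mRNA is the classical target of TTP, had 1054, 1169 and 1058 CPM in GFP replicates 1 to 3. That is 667 CPM per kilobase, rank 42 among coding genes, and its libraries were nearly level. No other cytokine on the list came near it. The stress-induced Gdf15 was at 75.6 CPM per kilobase, the inflammasome-processed Il1b at 38.8, the growth factor Csf1 at 34.5 and the interleukin 1 antagonist Il1rn at 25.6.

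Several well known LPS-induced cytokines were near the limit of expression. Il6 had 3.89, 3.02 and 3.50 CPM in GFP replicates 1 to 3, and the interferon gene Ifnb1 had 1.5, 1.67 and 2.54 CPM. Csf2 averaged 1.01 CPM, Lif 1.17, Il23a 4.18 and Csf3 4.37. The interleukin 27 subunit Il27 was at 0.399 CPM, the anti-inflammatory Il10 at 0.111 and Il12b, the shared subunit of interleukins 12 and 23, at 0.0992 CPM. Between these and Tnf, with 1093 CPM, lay 6 genes from 31.4 CPM for Il1a to 182 CPM for Csf1, and the median of the list was 2.82 CPM per kilobase.

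Chemokine genes that attract monocytes and neutrophils were higher, with a median of 116 CPM per kilobase and 7 of 13 above the 90th percentile. Ccl4 had 353, 429 and 886 CPM in GFP replicates 1 to 3, or 842 CPM per kilobase. Ccl2 had 679, 662 and 971 CPM, or 677 CPM per kilobase. Cxcl2 had 852, 931 and 1100 CPM, or 465 CPM per kilobase. Replicate 3 was the highest for all of these. The same held for Ccl3, with 210, 230 and 361 CPM, and for the interferon-associated Cxcl10, with 172, 209 and 404 CPM, though exons of Cxcl10 overlap Art3 on the opposite strand. Ccl9 stood at 313 CPM per kilobase. Related genes were not alike in level: Cxcl1 averaged 0.934 CPM and Cxcl3 0.159 CPM beside 961 CPM for Cxcl2, and Ccl22 had 0.160 CPM. Per kilobase Cxcl1 and Cxcl3 came to 0.498 and 0.0455 CPM.

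Among immediate early factors, 18 of 19 reached 1 CPM, with a median of 25.8 CPM per kilobase. Junb of the AP-1 family led at 252, followed by the survival gene Ier3 at 219, the stress factor Atf3 at 175, Klf6 at 116 and Jund at 104 CPM per kilobase. Exons of Junb overlap Prdx2 on the opposite strand. Ier3 had 250, 287 and 207 CPM in GFP replicates 1 to 3. Other members were uneven over libraries. Btg2, an antiproliferative gene, had 296, 255 and 75.6 CPM. Jun had 187, 147 and 79.7 CPM, and Fos had 77.1, 68.0 and 36.7 CPM. Replicate 3 was the lowest for all 3 of them. Egr1, an early growth response factor, was at 5.93 CPM and Egr3 at 0.959 CPM.

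All 11 NF-κB subunits and inhibitors reached 1 CPM. Nfkbia, which encodes the inhibitor IκBα, had 812, 929 and 651 CPM in GFP replicates 1 to 3, or 495 CPM per kilobase. The nuclear IκB proteins Nfkbiz and Nfkbid were at 97.1 and 38.5 CPM per kilobase. The subunits stood lower, with Rela at 13.5, Nfkb2 at 12.3, Nfkb1 at 11.9, Relb at 8.76 and Rel at 3.37 CPM per kilobase. Rela was the most even, with 42.1, 41.1 and 41.3 CPM. Nfkb2 had 40.5, 47.9 and 80.7 CPM, and Relb had 23.8, 31.3 and 47.0 CPM. The inhibitors Nfkbie and Nfkbib were at 12.2 and 8.72 CPM per kilobase, and Bcl3, the last member of the list, was the lowest at 3.02.

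Feedback and other induced genes had a median of 25.2 CPM per kilobase, and 18 of 19 reached 1 CPM. The adhesion molecule Icam1 was at 92.0, the ubiquitin-editing inhibitor Tnfaip3 at 85.6, the cytokine signalling suppressor Socs3 at 67.0, the phosphatase Dusp4 at 60.5 and the Tnfaip3 partner Tnip1 at 45.5 CPM per kilobase. Tnfaip3 was even over libraries, with 619, 646 and 591 CPM. Icam1 had 264, 452 and 487 CPM, lowest in replicate 1. Dusp1, a phosphatase that switches off p38 and JNK, had 102, 62.8 and 39.1 CPM, and its exons overlap Ergic1 on the opposite strand. Of the TTP family, Zfp36 was at 10.8 CPM per kilobase and its relative Zfp36l2 at 39.7, while Zfp36l1 was under 0.1 CPM.

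Library order differed between roles. Counted were genes at or above 1 CPM. Replicate 3 was highest for 8 of 11 NF-κB genes, 6 of 10 chemokines and 10 of 18 feedback genes. It was lowest for 10 of 18 immediate early factors and 14 of 24 receptors and surface proteins. Feedback genes went both ways, as replicate 3 was lowest for 7 of the 18. Over all protein-coding genes at that level replicate 3 was highest in 33.4% and lowest in 28.1%. At the median, replicate 3 stood at 1.41 times the geometric mean of replicates 1 and 2 for NF-κB genes. This ratio was 1.34 for chemokines, 1.14 for feedback genes, 0.911 for immediate early factors, 0.843 for receptors and 1.02 for all coding genes. Because the replicate-number term is shared by all groups, this order is a property of the replicate numbers across the series and not of the GFP cells. Replicate number and library date, which the study had as a term of its model, cannot be told apart here.

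**Figure D4:**
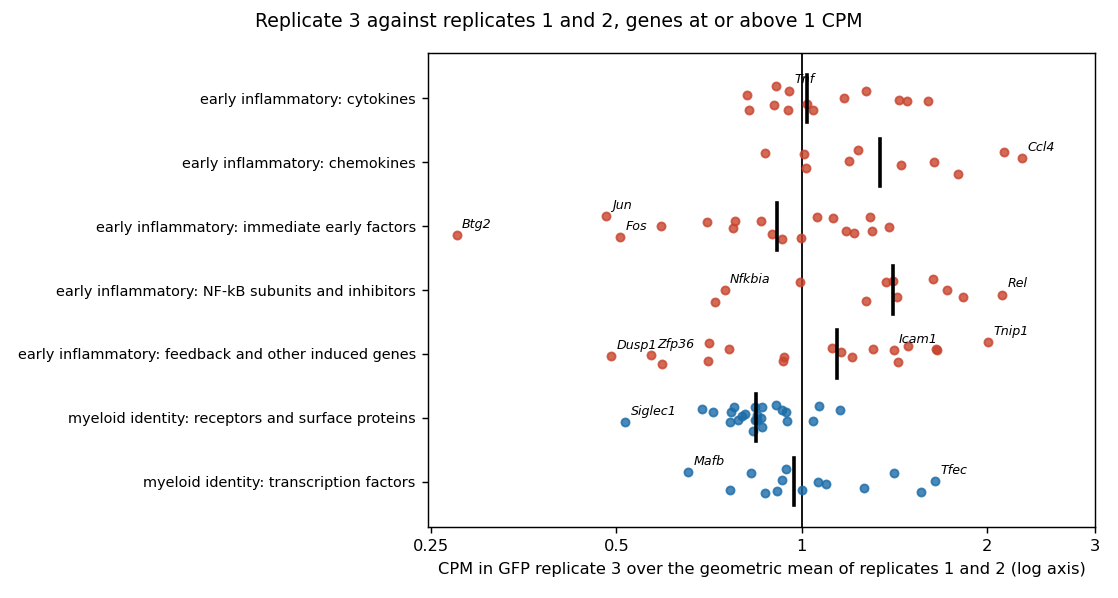
Ratio of CPM in GFP replicate 3 to the geometric mean of replicates 1 and 2 (log axis) for genes at or above 1 CPM, 1 point per gene, with black bars at the medians and a line at 1. NF-κB genes and chemokines lie mostly above 1, with medians of 1.41 and 1.34, and Btg2, Jun, Fos and Dusp1 lie far below it.

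Genes of division and of the p53 pathway were expressed alongside. All 14 cell cycle genes lay above the median of expressed coding genes, led by the cyclin Ccnd1 at 205, the replication clamp Pcna at 138, the kinase Cdk4 at 91.8, the mitotic kinase Aurka at 76.7 and the cyclin Ccna2 at 60.6 CPM per kilobase. The proliferation marker Mki67 had 270, 133 and 144 CPM in GFP replicates 1 to 3. Mdm2, which directs p53 for degradation, had 1279, 1591 and 1483 CPM, or 285 CPM per kilobase. Cdkn1a, a p53 target that inhibits cyclin-dependent kinases, stood at 61.0 CPM per kilobase, and Trp53 itself at 6.71. Nras was at 41.7, Hras at 28.3 and Myc at 3.83 CPM per kilobase, and Mycn was at 0.00362 CPM. The immortalizing genes are human, and how far their reads were counted under the mouse genes was not tested.

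Apoptosis genes singled out by the study were all expressed, at moderate levels with a median of 16.7 CPM per kilobase. Cdkn2a, the Ink4a/Arf tumour suppressor, was at 40.2, the BH3-only gene Pmaip1 at 35.3, the pore-forming Bak1 at 23.8, the BH3-only genes Bbc3 and Bcl2l11 at 17.1 and 16.4, the TNF receptor Tnfrsf1a at 14.9, the death receptor Fas at 14.8 and the inflammatory caspase Casp4 at 4.40 CPM per kilobase. Fas had 21.7, 26.4 and 43.5 CPM in GFP replicates 1 to 3, the widest range among them.

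Markers of other lineages were largely silent. Of 138 members 92 were listed, 52 of them under 0.1 CPM, 24 between 0.1 and 1 CPM and 16 at or above 1 CPM, and 46 were not listed. Of all 16584 listed protein-coding genes, 4298 were under 0.1 CPM and 10610 at or above 1 CPM. The median of those listed was 0.0470 CPM, beside 160 CPM for the myeloid identity genes. No member lay above the 90th percentile per kilobase of expressed coding genes, and 3 (Afp, Pf4 and Mbp) lay above the median.

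The 14 lineages differed in how many markers were expressed. No marker of B cells, NK cells, mast cells with basophils and eosinophils, fibroblasts, epithelium, muscle or germ and pluripotent cells reached 1 CPM. Their highest members were the B cell factor Ebf1 at 0.529 CPM, Hdc of histamine synthesis at 0.502, the germ cell helicase Ddx4 at 0.464, the troponin Tnnt2 at 0.186, the growth factor receptor Pdgfrb at 0.174 and the NK receptor Klrb1c at 0.0877 CPM. The highest of the 5 listed epithelial markers had 0.0163 CPM. For T cells, the receptor chain Cd3d had 0.146 CPM and Cd3e and Cd3g were not listed, while the signalling adaptor Lat had 3.90, 7.15 and 5.00 CPM in GFP replicates 1 to 3. Gata3, Cd5 and the kinase Lck averaged 3.19, 2.38 and 1.64 CPM.

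Neutrophil markers at or above 1 CPM were the collagenase Mmp8 at 4.27, the calcium-binding S100a8 at 3.91 and the granulocyte factor Cebpe at 2.62 CPM, and S100a9, the partner of S100a8, was not listed. Dendritic cell markers at that level were the cytokine receptor Flt3 at 6.90, Batf3 at 4.34 and Zbtb46 at 1.09 CPM. Single genes stood out in lineages that were otherwise silent. The platelet chemokine Pf4 had 24.3, 22.5 and 24.7 CPM in GFP replicates 1 to 3, while the globin genes Hba-a1 and Hba-a2 were not listed. Vwf, which encodes von Willebrand factor, had 34.5, 29.5 and 30.9 CPM, while the endothelial cadherin Cdh5 was at 0.246 CPM. Per kilobase, Vwf came to 1.97 CPM and Pf4 to 33.1.

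Afp and Mbp were higher still. The fetal serum protein gene Afp had 106, 110 and 119 CPM in GFP replicates 1 to 3, or 33.2 CPM per kilobase. Alb and Ttr, abundant in hepatocytes, were not listed, and the other hepatocyte genes at or above 1 CPM were Cyp2e1 at 1.72 and Apoa2 at 1.13 CPM. Mbp, which encodes myelin basic protein and shares its locus with Golli transcripts of blood cells, had 104, 95.9 and 70.9 CPM, or 10.7 CPM per kilobase, while the astrocyte gene Gfap was at 0.116 CPM.

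**Figure D5:**
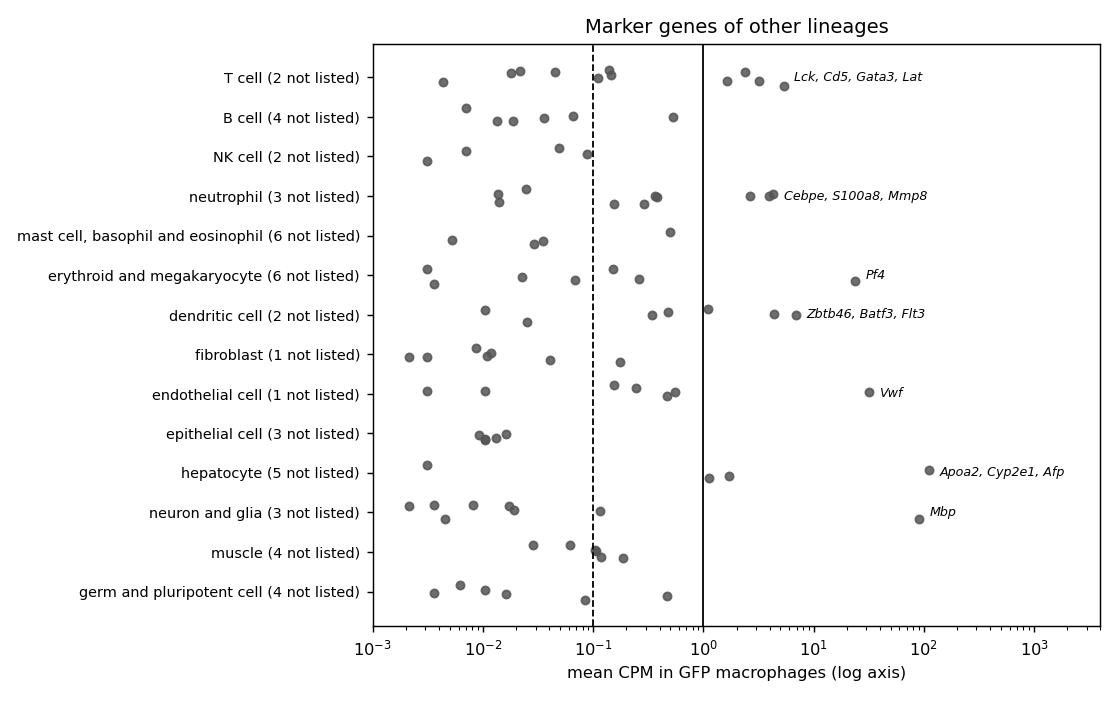
Mean CPM in GFP macrophages (log axis) of the 92 listed markers of 14 other lineages, 1 point per gene, with the number of markers not listed beside each lineage and lines at 0.1 CPM (dashed) and 1 CPM (solid). Most points lie left of 1 CPM, and the 16 genes to its right are named in ascending order, up to Afp at 112 CPM.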

How the data were processed

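RNA-seq of ribosomal RNA-depleted total RNA was analysed in 3 GFP libraries. Per the study's methods, this RNA came from a part of the cell extract made for ribosome profiling, after a rinse with cycloheximide. The libraries followed the protocol of the ribosome profiling kit. How this bears on the levels of small and nuclear RNAs was not tested. Per the labels and the study's methods, the authors trimmed reads with Trim Galore, aligned them to GRCm38 with TopHat (TopHat2 2.0.12 in the submitters' processing notes), counted them per gene with HTSeq and fitted DESeq2 1.6.3 with library date and condition. The deposited signal, named normalized counts, was found to hold fitted means of that model. After scaling by library and centring on the median ratio, their mean lay within 10% of the authors' mean signal for 97.3% of 13205 genes. Apart from that mean signal, the deposited comparison tables (log2 fold changes, standard errors, p-values) were not used.

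The deposited table held 25504 entries, of which 10 repeats were removed. Columns were scaled to CPM and averaged. Exon length, biotype and 3′UTR came from GENCODE M21 (GRCm38, the authors' assembly with a later annotation), which matched 98.71% of genes, and the 3′UTR was that of the transcript with the longest coding sequence. Genes at or above 1 CPM were called expressed and those under 0.1 CPM silent. No test was made. Steps were tested on simulated data and run in Python 3.11.15, numpy 2.4.6, pandas 2.3.3 and matplotlib 3.10.9.

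Members and lists were chosen with earlier results of these data known. Named were the 20 highest genes by CPM and per kilobase, the 4 markers, genes named by the study, per role the 5 highest and every member under 1 CPM, per other lineage the highest member and all at or above 1 CPM, and the 5 widest ranges. Other genes given values (Adgre1 and Itgam with the sort, partners of a named gene, and genes with uneven libraries) and the 8 sites were chosen after values were seen. A few list members are not reported here by name. Alternatives were leaving out each library, a protein-coding denominator, summed columns, limits of 0.5 and 2 CPM, transcript length, the motif ATTTA and any transcript.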

Additional observations from a re-analysis of the deposited data

How the results depend on the processing

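Of 406 values recomputed under other choices, 349 moved by less than 1 SD over libraries (within 1.5 times for counts) and 57 by more. Not among them are 318 means of single genes with 1 library left out, which cannot move by 1 SD of the same 3 values. The 349 do include 106 single-gene values from summed columns. These are weighted means of the same 3 libraries and could not move by 1 SD either. The same holds for the share of ribosomal protein genes with 1 library left out or columns summed. Single genes entered both by CPM and per kilobase. Without replicate 2, Lyz2 (15180 CPM) passed Rpph1 (15030 CPM). Leaving out each GFP library in turn gave a median for early inflammatory genes of 51.7 to 59.4 CPM (58.5 with all) and of 15.2 to 16.6 CPM per kilobase (15.7 with all), and for the LPS receptor pathway of 10.4 to 11.8 CPM per kilobase (11.8 with all). With protein-coding genes alone, which also leaves Rpph1, Rn7sk and Rmrp out of the leading genes, the top 10 took 6.37% in place of 8.58%. With protein-coding genes as the denominator, the early inflammatory median was 61.9 CPM and 16.6 CPM per kilobase, and the median of other lineages was 0.0497 CPM. With the length of the transcript with the longest coding sequence, medians per kilobase were 65.7 for myeloid identity, 16.3 for the LPS receptor pathway, 21.1 for early inflammatory, 52.7 for proliferation, 22.3 for apoptosis and 0.0268 for other lineages, beside a background median of 12.6 in place of 7.99, since most transcripts are shorter than the union of exons. Lyz2 stayed at rank 1 under both lengths, 14 of the top 20 and 79 of the top 100 genes were shared, and Tnf went from rank 42 to 94. The shorter motif ATTTA stood in 59 of 70 early inflammatory, 31 of 55 myeloid identity and 6967 of 10437 expressed coding genes. Counts of genes at limits of 0.5 and 2 CPM stayed within 1.5 times.

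No paired analysis was possible because the profile comes from no test and the fitted means carry no scatter between libraries. Depth limits the lowest values: 0.1 CPM stood for 2.92 to 3.80 fitted counts, so a gene under it was not detectable as expressed, and was not shown to be absent. For near-identical genes and genes with overlapping exons on either strand, how reads were divided was not tested.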

Other observations

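Replication-dependent histone genes, whose mRNAs lack a poly(A) tail and are kept by ribosomal RNA depletion, were also well represented. Of 63 listed, 53 were at or above 1 CPM and 40 lay above the 90th percentile of expressed coding genes per kilobase, with a median of 79.0 CPM per kilobase, and together they took 0.480% of counts. The highest per kilobase was the linker histone Hist1h1b, with 390, 328 and 483 CPM in GFP replicates 1 to 3. Replicate 3 was the highest for 33 of the 53.

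Among commonly used reference genes, Actb was at 2913 CPM per kilobase and Gapdh, whose exons overlap Iffo1 on the opposite strand, at 85.3. As for Actb, how reads of Gapdh were divided among any near-identical copies was not tested. Gapdh had 404, 321 and 333 CPM in GFP replicates 1 to 3 and ranked 597 among coding genes with the union of exons and 263 with transcript length, while Actb ranked 4 and 3. Other glycolytic genes in the top 100 were Pkm at 838, Ldha at 402 and Aldoa at 392 CPM per kilobase.

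Further genes outside the lists stood in the top 100 of protein-coding genes per kilobase. The bone and macrophage cathepsin Ctsk had 1007, 1539 and 1228 CPM in GFP replicates 1 to 3, or 832 CPM per kilobase. The cathepsin inhibitors Cstb and Cst3 were at 917 and 639, the galectin Lgals3 at 744 and the sphingolipid activator precursor Psap at 592 CPM per kilobase. The lincRNA Malat1 had 1418, 1124 and 1037 CPM, and Neat1, a scaffold of paraspeckles, had 65.8, 39.6 and 88.3 CPM.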
